A study of Mus musculus with 48 samples.

Results

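The module described here holds 28 genes of hepatic cholesterol synthesis, the SREBP-2 system that controls it and intracellular sterol transport. Members were found by gene symbol in the array annotation, each was read from its brightest probe on average, and 27 of the 28 were measured among 20486 genes past the filter on dim probes. Acat2, the cytosolic acetoacetyl-CoA thiolase, had no probe under its name. Livers came from male mice killed at ZT16, 16 h after lights on, in 8 groups of 6 mice, with 1 one-colour array per mouse and 48 arrays in all. All mice carried the floxed p110α allele. The p110αhep+/+ mice were controls without the Cre transgene, and the p110αhep-/- mice lacked the p110α catalytic subunit of phosphoinositide kinase through Cre driven by the albumin promoter, which acts in hepatocytes. From 12 weeks of age the mice received a control diet (CTRL) or a high-fat diet (HFD, 60% of calories from fat) for 12 weeks, and at the end they were fed ad libitum or fasted for 24 h. Values are log2 signals after normalization, which allow comparison of 1 probe across arrays but not of one probe with another.

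Cholesterol is built in the cytosol and endoplasmic reticulum from acetyl-CoA through mevalonate, isoprenoid diphosphates, squalene and lanosterol. The transcription factor SREBP-2, encoded by Srebf2, is held in the endoplasmic reticulum with its escort Scap by the anchor Insig1 when sterols are plentiful. When sterols fall, the complex moves to the Golgi, the active fragment is released by proteolysis, and genes of the whole pathway are transcribed. The liver is a main site of cholesterol synthesis, and the pathway is known to be active after meals and low in fasting.

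The promoters of 5 members are printed because these members span the behaviour described below and the route, from HMG-CoA synthesis and the lanosterol steps to the anchor Insig1 and SREBP-2 itself. RefSeq (GRCm38.p6) gave a window for 23 of the 28 members, and Fdps, Fdft1, Sqle, Stard4 and Npc1 are named only. Each line holds the 250 bases before the gene's start, 5′ to 3′ on the gene's strand, with capitals marking matches on either strand to the sterol regulatory element TCACNCCAC, its shorter form CACNCCA, which lies inside it, or the NF-Y box CCAAT. Hmgcs1 lies at chr13:119690101-119690350 (plus strand), Cyp51 at chr5:4104698-4104947 (minus), Nsdhl at chrX:72918271-72918520 (plus), Insig1 at chr5:28071162-28071411 (plus) and Srebf2 at chr15:82147019-82147268 (plus).
Hmgcs1: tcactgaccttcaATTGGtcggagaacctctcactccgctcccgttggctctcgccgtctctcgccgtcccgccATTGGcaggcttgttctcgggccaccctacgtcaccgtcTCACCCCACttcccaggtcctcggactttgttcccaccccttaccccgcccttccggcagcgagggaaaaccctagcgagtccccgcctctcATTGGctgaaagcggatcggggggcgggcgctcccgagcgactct
Cyp51: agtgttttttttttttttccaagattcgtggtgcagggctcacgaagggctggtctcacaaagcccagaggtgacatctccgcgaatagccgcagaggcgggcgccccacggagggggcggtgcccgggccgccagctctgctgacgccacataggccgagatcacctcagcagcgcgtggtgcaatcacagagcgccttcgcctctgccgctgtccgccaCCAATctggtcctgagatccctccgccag
Nsdhl: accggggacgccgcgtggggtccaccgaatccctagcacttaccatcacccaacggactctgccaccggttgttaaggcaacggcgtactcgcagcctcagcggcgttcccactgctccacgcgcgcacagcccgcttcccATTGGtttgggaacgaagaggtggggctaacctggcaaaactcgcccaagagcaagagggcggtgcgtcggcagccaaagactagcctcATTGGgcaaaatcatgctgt
Insig1: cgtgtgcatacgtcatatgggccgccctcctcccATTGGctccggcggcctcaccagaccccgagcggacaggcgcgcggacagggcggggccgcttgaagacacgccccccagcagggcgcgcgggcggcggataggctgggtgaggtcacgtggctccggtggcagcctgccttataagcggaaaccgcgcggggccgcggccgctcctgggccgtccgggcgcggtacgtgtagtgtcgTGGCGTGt
Srebf2: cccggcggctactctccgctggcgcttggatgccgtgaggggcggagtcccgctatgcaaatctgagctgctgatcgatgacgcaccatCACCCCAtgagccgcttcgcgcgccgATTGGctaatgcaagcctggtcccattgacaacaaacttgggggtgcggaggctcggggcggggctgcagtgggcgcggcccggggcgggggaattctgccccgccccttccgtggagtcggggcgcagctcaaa

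The long element was matched in 1 of 23 member windows, that of Hmgcs1, and in 1.22% of the windows of 27025 genes. The short form was matched in 5 members (21.7%), namely Acat2, Hmgcs1, Msmo1, Srebf2 and Insig1, and in 17.4% of all genes. CCAAT was matched in 20 members (87%) against 37.5% of all genes, and the SP1 box GGGCGG, searched on both strands and not capitalised, in 20 members (87%) against 35.4%. The short sterol element and CCAAT stood together in 4 members (17.4%), Hmgcs1, Msmo1, Srebf2 and Insig1, and in 6.8% of all genes. A match describes the letters of the window and no binding.

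The arrays were alike in quality. The share of spots well above background was between 52.3% and 59.3% per array, no spot was saturated, and any pair of arrays correlated at 0.972 to 0.998 across genes. Pik3ca, the targeted gene, is read by 1 probe whose place relative to the deleted exons was not determined here, so its level is no check of the genotype labels. It lay at 12.79 to 13.09 in fed p110αhep+/+ and 13.02 to 13.33 in fed p110αhep-/- mice on CTRL diet, and at 12.58 to 12.99 and 13.08 to 13.56 on HFD, where the genotypes did not overlap. In fasted mice it lay at 13.09 to 13.44 and 13.27 to 13.55 on CTRL diet and at 12.95 to 13.45 and 13.31 to 13.71 on HFD. The 6 hepatocyte markers (Alb, Ttr, Apoa1, Apob, Tat and Cps1) were well above background on every array, with array means of 16.06 to 16.82. All members but Sqle were well above background on all 48 arrays. Sqle passed on 5 of 6 arrays of fed p110αhep-/- mice on HFD, on 5 of 6 of fasted p110αhep-/- mice on CTRL diet and on 1 of 6 of fasted p110αhep-/- mice on HFD. In bulk liver RNA, fewer cells of a type and less RNA per cell cannot be told apart.

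In p110αhep+/+ mice on CTRL diet, fasting lowered 14 of the 20 measured enzymes, at each stage of the route. Of the 27 members 16 were called lower and none higher, where a call needs a fold change over 1.5 beside an adjusted p no higher than 0.05 in limma, and 2.52% of all genes were called lower. The median log2 fold change of the members was -0.96, beside 0.00 over all genes. By step, the calls were 2 of 2 genes at HMG-CoA synthesis, 3 of 3 at mevalonate, 2 of 3 at isoprenoids, 2 of 3 between squalene and lanosterol and 5 of 9 between lanosterol and cholesterol. Insig1 and Stard4 completed the 16.

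**Figure D1:**
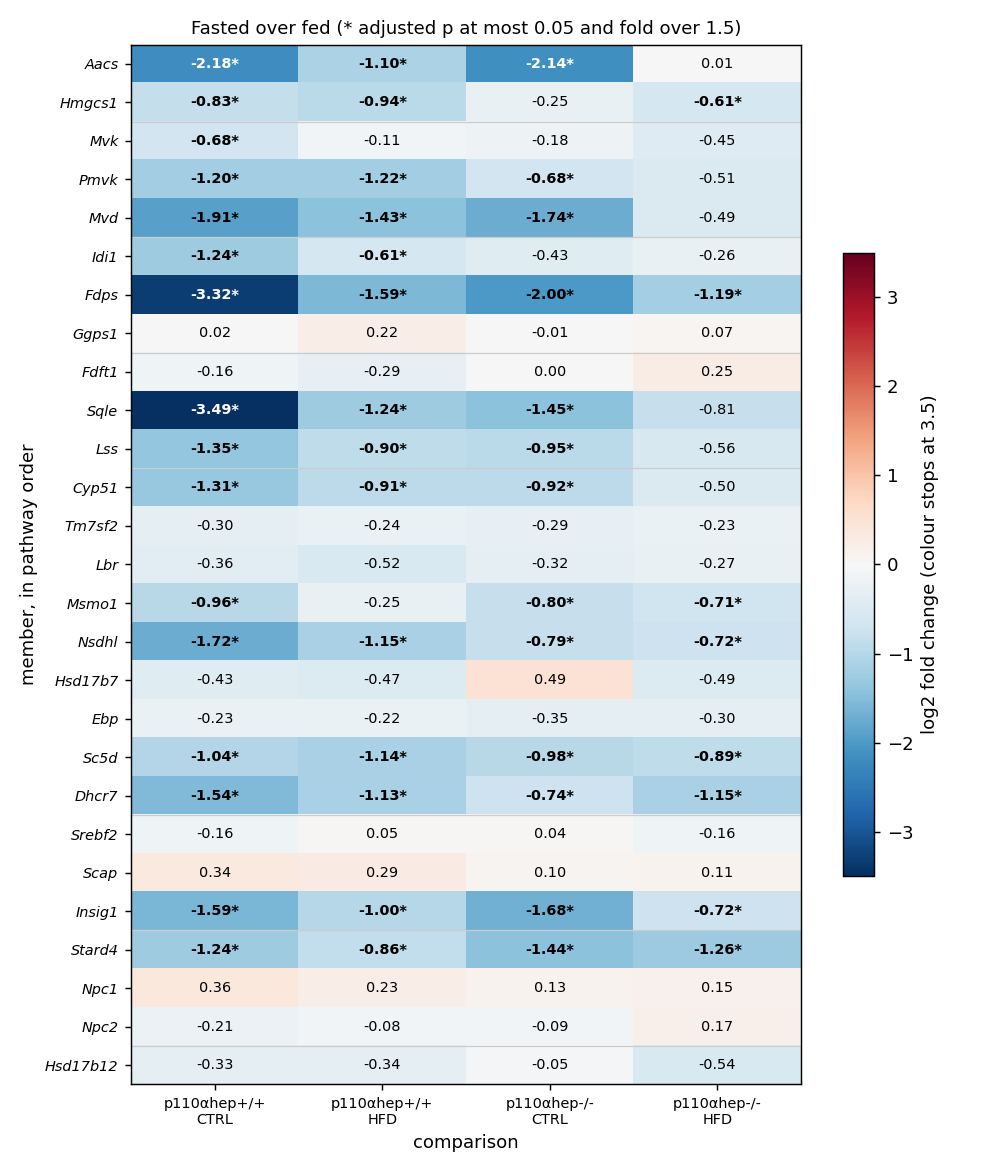
Log2 fold change of fasted over fed mice for the 27 measured members in pathway order (y axis) in each genotype and diet (x axis, 6 against 6 arrays), with called members starred. The longest declines are those of Sqle and Fdps in p110αhep+/+ mice on CTRL diet (-3.49 and -3.32), and the column of p110αhep-/- mice on HFD is the palest.

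Among the first enzymes, Aacs, which makes acetoacetyl-CoA from the ketone body acetoacetate, had log2 signals of 13.31 to 14.23 (median 13.77) in fed and 11.07 to 12.32 (median 11.63) in fasted p110αhep+/+ mice on CTRL diet. The groups did not overlap, and Aacs fell by 2.18 (SE 0.20, adjusted p = 2.9e-11). Hmgcs1, the cytosolic HMG-CoA synthase, went from a median of 12.94 (12.43 to 13.58) to 12.24 (12.06 to 12.63), with overlapping arrays, a log2 fold change of -0.83 (SE 0.17) and an adjusted p of 0.00017. Of the mevalonate enzymes, the decarboxylase gene Mvd fell most, by 1.91 (SE 0.25, adjusted p = 6.0e-08), with fed arrays at 7.95 to 9.37 (median 8.86) and fasted ones at 6.61 to 7.15 (median 6.95). The kinases Pmvk and Mvk fell by 1.20 and 0.68.

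The isoprenoid and squalene steps held the largest changes. Fdps, which makes farnesyl diphosphate, the branch point toward sterols, went from 13.82 to 14.90 (median 14.51) in fed to 10.71 to 11.65 (median 11.27) in fasted p110αhep+/+ mice on CTRL diet. That is a 10.01-fold decline with more than 2 log2 units between the nearest arrays of the groups (log2 fold change -3.32, SE 0.22, adjusted p = 1.8e-15). Sqle, the squalene epoxidase that controls flux into the sterol branch, went from 9.52 to 11.25 (median 10.47) to 6.17 to 7.83 (median 6.88), 11.3-fold lower (-3.49, SE 0.41, adjusted p = 7.5e-09). The groups were apart for Sqle too. Idi1, the isopentenyl diphosphate isomerase, fell by 1.24, and Lss, which closes squalene epoxide into lanosterol, by 1.35. Ggps1, which leads farnesyl diphosphate into prenylation instead, had a log2 fold change of 0.02 (95% interval -0.19 to 0.22), and Fdft1, the squalene synthase between Fdps and Sqle, one of -0.16 (-0.46 to 0.14).

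In the conversion of lanosterol, Nsdhl, a dehydrogenase of the demethylation complex, fell by 1.72 (SE 0.18), from 8.75 to 9.71 (median 9.62) to 7.35 to 8.25 (median 7.89). Dhcr7, the reductase that makes cholesterol from its immediate precursor, fell by 1.54 (SE 0.18), from 9.03 to 9.94 (median 9.70) to 7.67 to 8.68 (median 8.22). Neither pair of groups overlapped. The lanosterol demethylase Cyp51 fell by 1.31, the desaturase Sc5d by 1.04 and the methylsterol monooxygenase Msmo1 by 0.96. The remaining enzymes here stayed under the fold threshold, with log2 fold changes of -0.43 for the keto reductase Hsd17b7, -0.36 for the sterol reductase Lbr, -0.30 for its counterpart Tm7sf2 and -0.23 for the isomerase Ebp. Hsd17b12, a reductase of fatty acid elongation listed with the pathway, had -0.33.

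The regulators did not move as a block. Srebf2 had a median of 10.22 (10.12 to 10.30) in fed and 10.08 (9.90 to 10.32) in fasted p110αhep+/+ mice on CTRL diet, a log2 fold change of -0.16 (95% interval -0.33 to 0.01). Insig1, whose own gene is a target of the SREBP proteins, fell by 1.59 (SE 0.15, adjusted p = 7.9e-11), from a median of 9.61 (8.82 to 9.94) to 7.89 (7.55 to 8.15), with no overlap. Scap, the escort, had a log2 fold change of 0.34 (SE 0.06, adjusted p = 1.4e-05), and the fasted arrays (13.08 to 13.33) were all above the fed ones (12.77 to 12.92). In the transport set, Stard4, a cytosolic sterol transfer protein, fell by 1.24 (SE 0.16), whereas Npc1, the lysosomal cholesterol exporter, had a log2 fold change of 0.36 (adjusted p = 9.3e-05) and its luminal partner Npc2 one of -0.21. Both stayed under the fold threshold.

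Cell type markers moved in this comparison too, and their part in it was not tested. Of 33 markers past the filter 4 were called, against 5.45% of all genes called in either direction. They were Tat of hepatocytes (0.89), Lrat (-0.68) and Col1a1 (-0.84) of stellate cells and Spp1 of the bile duct (-0.59). The array means of the stellate list were 9.74 to 10.37 in fed and 9.64 to 10.05 in fasted mice, and those of the bile duct list 7.08 to 7.74 and 6.88 to 7.32.

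In p110αhep-/- mice on CTRL diet, 13 members were called lower with fasting and none higher, against 3.44% of all genes, with a median of -0.43. Hmgcs1, Mvk and Idi1 were the members called in p110αhep+/+ but not in p110αhep-/- mice on this diet. The interaction that tests this difference, given below, was called for none of them. Fdps went from 12.34 to 13.07 (median 12.72) to 10.27 to 11.34 (median 10.76) and fell by 2.00 (SE 0.23, adjusted p = 2.5e-09), with no overlap between fed and fasted arrays. Sqle fell by 1.45 (SE 0.42, adjusted p = 0.0056), and its fed (6.33 to 9.11, median 7.62) and fasted arrays (5.58 to 7.98, median 6.04) overlapped. Of those fasted arrays 5 of 6 were well above background. Aacs, Mvd, Insig1 and Stard4 fell by 2.14, 1.74, 1.68 and 1.44, and Lss lost its call with the median of its probes. Of the 33 markers 5 were called, against 7.09% of all genes in either direction, Tat (0.68) and the endothelial Lyve1 (1.07) higher and Col1a1 (-1.18), Krt19 (-1.05) and Spp1 (-0.71) lower.

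Hsd17b7 went the other way in p110αhep-/- mice on CTRL diet. Its fed arrays lay at 11.15 to 11.52 (median 11.34) and its fasted arrays at 11.59 to 12.03 (median 11.80), all above them. The log2 fold change of 0.49 (SE 0.10, adjusted p = 0.00015) was under the fold threshold, while in p110αhep+/+ mice it was -0.43.

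The difference between the fasting responses of the genotypes was tested as an interaction. On CTRL diet it was called higher, that is a smaller decline or a rise in p110αhep-/- mice, for 4 members, against 0.639% of all genes. These were Fdps (difference 1.32, SE 0.32, adjusted p = 0.013), Sqle (2.04, SE 0.58, adjusted p = 0.038), Nsdhl (0.93, SE 0.26, adjusted p = 0.030) and Hsd17b7 (0.92, SE 0.14, adjusted p = 0.00018). For Sqle, 5 of 6 fasted p110αhep-/- arrays were well above background (5.58 to 7.98). The size of its difference is therefore not exact. For Fdps, Sqle and Nsdhl the fed level was already lower in p110αhep-/- than in p110αhep+/+ mice, with no overlap between the fed groups. The count of 4 became 2 without any 1 of 7 arrays, as given in the closing section.

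On HFD, fasting lowered 14 members in p110αhep+/+ mice, against 2.47% of all genes, and 8 in p110αhep-/- mice, against 3.14%, and raised none in either genotype. The medians were -0.61 and -0.49. In p110αhep+/+ mice the declines of Fdps (-1.59, SE 0.22, adjusted p = 2.8e-07) and Mvd (-1.43, SE 0.24, adjusted p = 9.0e-06) were the largest. In p110αhep-/- mice they were those of Stard4 (-1.26, SE 0.18), Fdps (-1.19, SE 0.25) and Dhcr7 (-1.15, SE 0.21), and Sc5d, Nsdhl, Insig1, Msmo1 and Hmgcs1 made up the 8. Hmgcs1 (-0.61) lost its call under at least 1 alternative, and so did Idi1 and Sqle in p110αhep+/+ mice. The markers called were 2 of 33 in p110αhep+/+ mice, Tat (0.598) and Cela2a (0.78), both higher, against 4.72% of all genes in either direction. In p110αhep-/- mice they were 4 of 33, Lyve1 (0.82) and Cela2a (1.52) higher and Col1a1 (-0.82) and Spp1 (-0.66) lower, against 5.89%. Aacs stood out, since on HFD its arrays in p110αhep-/- mice lay at 10.74 to 11.55 (median 11.03) when fed and at 10.56 to 11.91 (median 11.28) when fasted, a log2 fold change of 0.01 (95% interval -0.45 to 0.47).

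The genotype by fasting interaction on HFD was called higher for Aacs (1.11, SE 0.30, adjusted p = 0.029) and for Pmvk (0.71, SE 0.19, adjusted p = 0.030), against 0.727% of all genes. Single arrays decided these calls, and the count lay between 0 and 3 when each array was left out. Both calls were also lost under at least 1 alternative, as were those of Sqle and Nsdhl for the interaction on CTRL diet.

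The diet by fasting interaction, a contrast added after the values were seen, compares the fasting response on HFD with that on CTRL diet. In p110αhep+/+ mice it was called higher, a smaller decline on HFD, for Fdps (1.74, SE 0.31, adjusted p = 0.0011), Sqle (2.25, SE 0.57, adjusted p = 0.025) and Aacs (1.08, SE 0.28, adjusted p = 0.032), against 0.298% of all genes, and without fasted p110αhep+/+ HFD replicate 4 the count was 1. Sqle and Aacs lost the call under at least 1 alternative. In p110αhep-/- mice 4 members were called, against 2.90% of all genes called in either direction. Aacs (2.15, SE 0.31), Mvd (1.25, SE 0.37) and Insig1 (0.96, SE 0.23) were higher and Hsd17b7 was lower (-0.98, SE 0.15), with the call of Mvd lost under at least 1 alternative. Among the markers Cela2a was called there (1.47), 1 of 33.

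**Figure D2:**
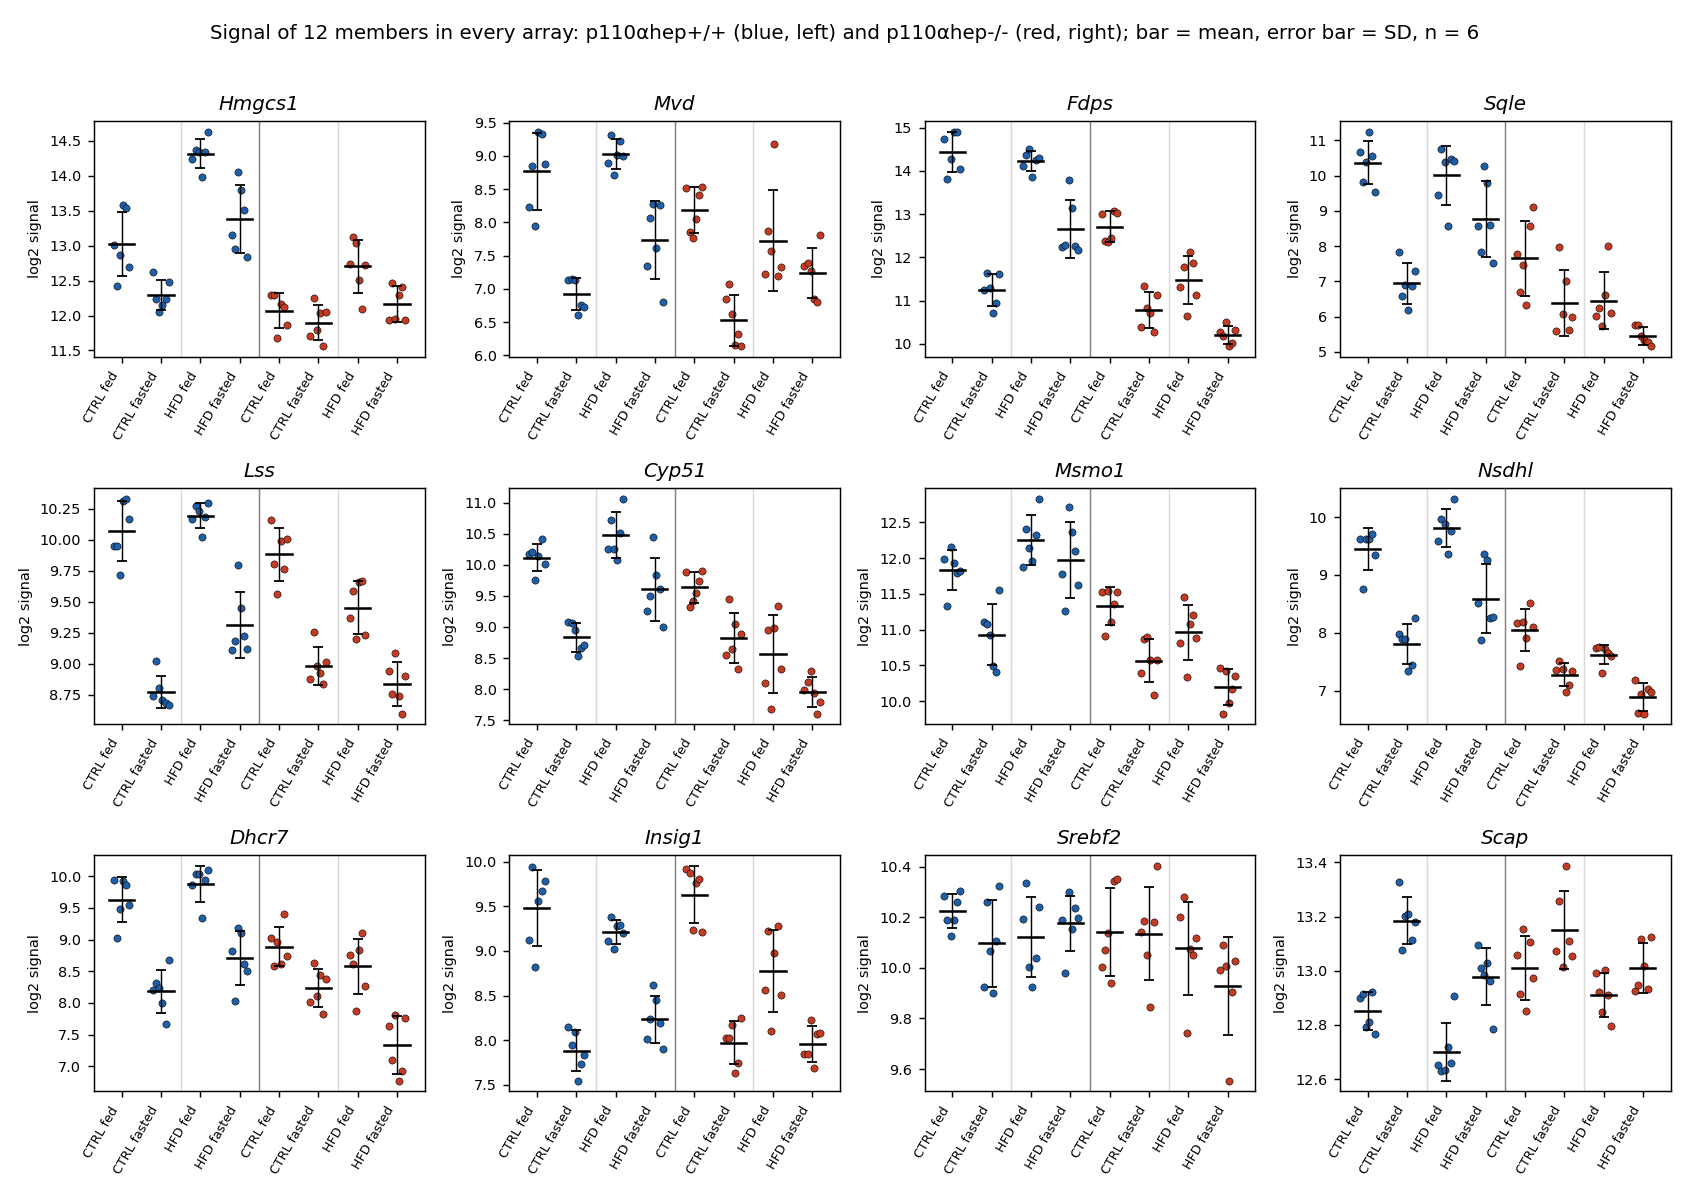
Log2 signal (y axis) of 12 members on every array by diet and feeding state (x axis), in p110αhep+/+ (blue) and p110αhep-/- mice (red), with the mean as a bar and the SD as an error bar (n = 6 arrays). In fasted mice on HFD, Fdps and Sqle of the p110αhep+/+ group (12.18 to 13.79 and 7.51 to 10.27) lie above every array of the p110αhep-/- group (9.95 to 10.50 and 5.16 to 5.76). For Srebf2 the genotypes overlap within each diet and feeding state.

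In fasted mice on CTRL diet the genotypes differed at few members. Of the 27 members 2 were called, against 3.23% of all genes called in either direction, and the median log2 fold change of p110αhep-/- over p110αhep+/+ mice was -0.09. Hsd17b7 was higher in p110αhep-/- mice (11.59 to 12.03, median 11.80) than in p110αhep+/+ mice (11.005 to 11.30, median 11.21), by 0.63 (SE 0.10, adjusted p = 4.1e-06), with no overlap. Aacs was lower by a log2 fold change of -0.76 (SE 0.20, adjusted p = 0.0045), with 10.62 to 11.21 (median 10.90) against 11.07 to 12.32 (median 11.63), and the groups overlapped. With the median of the probes of each gene, Hsd17b7 fell under the fold threshold (0.58). Fdps had a log2 fold change of -0.47 (95% interval -0.92 to -0.02, adjusted p = 0.12), Sqle one of -0.77 (-1.58 to 0.05) and Nsdhl one of -0.51 (adjusted p = 0.029, under the fold threshold). The count of 2 became 4 without fasted p110αhep+/+ CTRL replicate 5 and 1 without fasted p110αhep-/- CTRL replicate 4. Of the 33 markers 5 were called here, Col1a1 (-0.997), Krt19 (-0.74), Spp1 (-1.88) and the fat marker Cfd (-5.46) lower and the pancreas marker Cela2a (0.999) higher.

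In fasted mice on HFD the genotypes differed at 12 of the 20 enzymes. Of the 27 members 14 were called lower in p110αhep-/- mice and none higher, against 4.23% of all genes called lower, and the median log2 fold change was -0.60, beside 0.03 over all genes. The calls were 2 of 2 at HMG-CoA synthesis, 2 of 3 at mevalonate, 2 of 3 at isoprenoids, 1 of 3 between squalene and lanosterol (Sqle, near background in p110αhep-/- mice) and 5 of 9 from lanosterol to cholesterol, with Stard4 and Hsd17b12 besides.

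Sqle, the epoxidase, was low throughout the p110αhep-/- group. It lay at 7.51 to 10.27 (median 8.59) in fasted p110αhep+/+ and at 5.16 to 5.76 (median 5.40) in fasted p110αhep-/- mice on HFD, and the genotypes did not overlap. Only 1 of the 6 arrays of the p110αhep-/- group was well above background for Sqle, so the fitted log2 fold change of -3.31 (SE 0.44, adjusted p = 1.0e-07) is set against values near background, and its exact size and its rank among the members are not read. Fdps lay at 12.18 to 13.79 (median 12.27) in p110αhep+/+ and 9.95 to 10.50 (median 10.22) in p110αhep-/- mice, 5.31-fold lower (-2.41, SE 0.24, adjusted p = 1.7e-10), again with no overlap.

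The lanosterol segment followed, with no overlap between genotypes for the first 4 genes given. Msmo1 lay at 11.26 to 12.71 (median 11.94) in p110αhep+/+ and 9.83 to 10.46 (median 10.26) in p110αhep-/- mice (-1.75, SE 0.20, adjusted p = 3.9e-09). Nsdhl lay at 7.87 to 9.36 (median 8.39) and 6.61 to 7.19 (median 6.96), a log2 fold change of -1.72 (SE 0.19, adjusted p = 2.3e-09). Cyp51 lay at 9.0 to 10.46 (median 9.55) and 7.61 to 8.30 (median 7.96), a log2 fold change of -1.59 (SE 0.20, adjusted p = 6.9e-08). Dhcr7, next in size, lay at 8.03 to 9.18 (median 8.72) and 6.77 to 7.80 (median 7.36), a log2 fold change of -1.39 (SE 0.20, adjusted p = 4.1e-07), and it did not overlap either. Tm7sf2 was lower by -1.02, and so were Hmgcs1 (-1.22), Mvk (-1.096), Aacs (-0.84), Idi1 (-0.82), Stard4 (-0.70) and Pmvk (-0.60). The other 4 lanosterol enzymes were not called, with log2 fold changes of -0.58 for Sc5d, -0.30 for Hsd17b7, -0.02 for Ebp and 0.10 for Lbr. Earlier in the route Mvd (-0.37), Ggps1 (0.03), Fdft1 (-0.28) and Lss (-0.45, adjusted p = 0.0012) were not called. Idi1 lost its call when only the compared groups were fitted (adjusted p = 0.078), and Stard4 with the median of the probes of each gene (-0.46).

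Hsd17b12 had the smallest adjusted p of the members in fasted mice on HFD. It lay at 12.57 to 12.86 (median 12.72) in p110αhep+/+ and 11.38 to 11.82 (median 11.58) in p110αhep-/- mice (-1.14, SE 0.08, adjusted p = 2.1e-14), with no overlap. Its second probe had -0.32 in the same comparison. The second probes of Hmgcs1 and Nsdhl also moved less, with -0.21 and -0.55 where the brightest probes had -1.22 and -1.72, and the brightest Hmgcs1 probe is placed on an unassembled contig of chromosome 13 in mm9, the build of the array annotation.

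Outside the enzymes, the regulators were close between the genotypes in fasted mice on HFD. Srebf2 lay at 9.98 to 10.30 (median 10.19) in p110αhep+/+ and 9.55 to 10.09 (median 9.998) in p110αhep-/- mice, a log2 fold change of -0.24 (95% interval -0.42 to -0.06, adjusted p = 0.032), under the fold threshold. Insig1 had -0.23 (-0.56 to 0.10) and Scap 0.04 (-0.09 to 0.16). Npc1 had 0.29 (adjusted p = 0.0022), also under the fold threshold, and Npc2 -0.11.

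**Figure D3:**
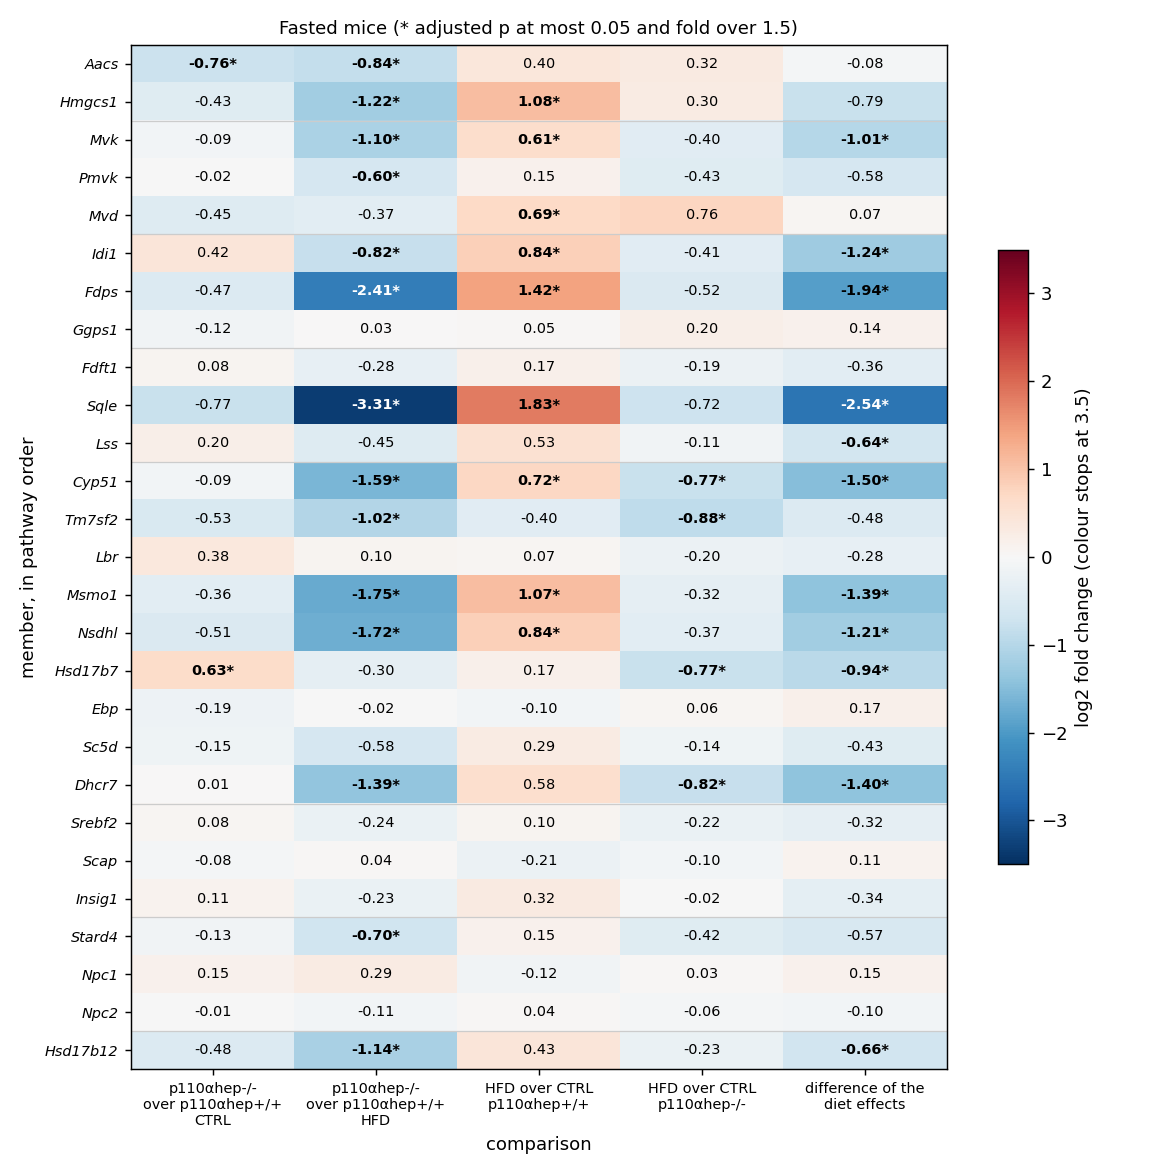
Log2 fold changes among fasted mice for the 27 measured members in pathway order (y axis): genotype on each diet, diet in each genotype and the difference of the diet effects (x axis), with called members starred. On CTRL diet 2 members are starred between genotypes and on HFD 14, and the diet columns of the genotypes differ in sign for most enzymes from Mvk to Dhcr7.

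HFD went with higher levels of 9 of the 20 enzymes in fasted p110αhep+/+ mice. Of the 27 members 9 were called higher on HFD and none lower, against 1.83% of all genes called higher, with a median log2 fold change of 0.32. Sqle lay at 6.17 to 7.83 (median 6.88) on CTRL diet and 7.51 to 10.27 (median 8.59) on HFD, a log2 fold change of 1.83 (SE 0.41, adjusted p = 0.0015) with overlapping arrays. Fdps lay at 10.71 to 11.65 (median 11.27) and 12.18 to 13.79 (median 12.27), a log2 fold change of 1.42 (SE 0.22, adjusted p = 1.8e-05), and Hmgcs1 at 12.06 to 12.63 (median 12.24) and 12.83 to 14.05 (median 13.33), 1.08 (SE 0.17, adjusted p = 1.6e-05). The diets did not overlap for Fdps and Hmgcs1. Msmo1 (1.07), Nsdhl (0.84), Idi1 (0.84), Cyp51 (0.72), Mvd (0.69) and Mvk (0.61) were the other 6, each with some overlap between diets. Under at least 1 of 13 alternatives that kept both washing batches and the thresholds, Mvk, Mvd and Idi1 lost the call. Just under the fold threshold were Dhcr7 (0.58, adjusted p = 0.025) and Lss (0.53, adjusted p = 0.00031). Going the other way, 2 members passed the adjusted p at lower levels on HFD, both under the fold threshold. The lowest log2 fold change of the 27 members was -0.395, that of Tm7sf2 (13.07 to 13.64 on CTRL diet and 12.62 to 13.23 on HFD).

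Further probes of the called members were also read for diet in fasted p110αhep+/+ mice. Of 6 pairs of a further probe with a called brightest probe, 1 was called on both, a second probe of Msmo1 (1.09). The further probes of Hmgcs1 (0.23, adjusted p = 0.15) and Nsdhl (0.41, adjusted p = 0.081) did not pass the test, and those of Mvk (0.47), Cyp51 (0.46) and Msmo1 (0.38) passed it under the fold threshold. Of the 33 markers 3 were called, all higher on HFD, against 2.83% of all genes in either direction, namely Col1a1 (1.83), Spp1 (0.99) and Cfd (2.69). The array means of the stellate list lay at 9.64 to 10.05 on CTRL diet and 9.84 to 10.67 on HFD, those of the bile duct list at 6.88 to 7.32 and 7.14 to 7.57 and those of the fat list at 7.33 to 8.44 and 8.37 to 9.30, and their part in the diet effect was not tested.

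In fasted p110αhep-/- mice HFD raised no member and lowered 4, against 0.971% of all genes called lower, with a median of -0.22. All 4 act between lanosterol and cholesterol. Tm7sf2 lay at 12.52 to 13.04 (median 12.85) on CTRL diet and 11.77 to 12.20 (median 11.95) on HFD (-0.88, SE 0.12, adjusted p = 1.8e-06). It was lower on HFD in fasted p110αhep+/+ mice too, under the fold threshold (-0.395). Dhcr7 lay at 7.83 to 8.64 (median 8.24) and 6.77 to 7.80 (median 7.36), a log2 fold change of -0.82 (SE 0.20, adjusted p = 0.0041). Cyp51 (-0.77, adjusted p = 0.010) and Hsd17b7 (-0.77, adjusted p = 2.7e-06) fell too, and the diets did not overlap for any of the 4. Cyp51 lost its call with the median of its probes (-0.55), and its further probe had -0.33 (adjusted p = 0.082). Mvd stood against this with a log2 fold change of 0.76 (95% interval 0.23 to 1.28, adjusted p = 0.056). Of the 33 markers Cfd (2.97) and Cela2a (1.096) were called higher, against 1.89% of all genes in either direction.

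The difference of the diet effects between genotypes in fasted mice was called lower in p110αhep-/- mice for 11 members and higher for none, against 1.31% of all genes called lower, with a median of -0.57. The members were Mvk, Idi1, Fdps, Sqle, Lss, Cyp51, Msmo1, Nsdhl, Hsd17b7, Dhcr7 and Hsd17b12. Of the 11, 8 kept the call under each alternative that measured them, of 13 with both washing batches, unchanged thresholds and no single array left out. Idi1, Lss and Hsd17b12 lost it under at least 1. With a fold change over 2 the count was 8 and left out Lss (-0.64), Hsd17b7 (-0.94) and Hsd17b12 (-0.66). Of 10 pairs of a further probe with a called brightest probe, 4 were called on both, 1 each of Lss, Cyp51, Msmo1 and Hsd17b7, and the further probes of Mvk (-0.58), Nsdhl (-0.38) and Hsd17b12 (-0.35) were not called. The interaction was also called for 2 of the 33 markers, Col1a1 lower (-1.32) and Cela2a higher (1.31), against 1.86% of all genes in either direction, and their part in this difference was not tested. Fdps differed by -1.94 (SE 0.33, adjusted p = 0.00043) and Cyp51 by -1.496 (SE 0.28, adjusted p = 0.0013). The fitted difference of Sqle (-2.54, SE 0.59, adjusted p = 0.0092) includes the fasted p110αhep-/- group on HFD, where 1 of 6 arrays was well above background, so its size is not exact. For Hmgcs1, called for diet in p110αhep+/+ but not in p110αhep-/- mice, the difference was -0.79 (SE 0.25, adjusted p = 0.053), and for Mvd it was 0.07 (95% interval -0.65 to 0.79). These comparisons share their fasted groups, so their counts are not independent.

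Washing batch, the array wash given in the labels, held 3 arrays of every group in each of 2 batches, so the fits were repeated within batches. In batch 1 alone limma called this difference for 0 members, with 14 of the 27 at an unadjusted p under 0.05, and in batch 2 alone for 7. The log2 difference of Fdps was -1.80 (SE 0.46) in batch 1 and -2.27 (SE 0.45) in batch 2, that of Sqle -2.33 (SE 0.71) and -2.95 (SE 0.92), and that of Cyp51 -1.24 (SE 0.39) and -1.84 (SE 0.35). All 11 kept their direction in both batches.

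**Figure D4:**
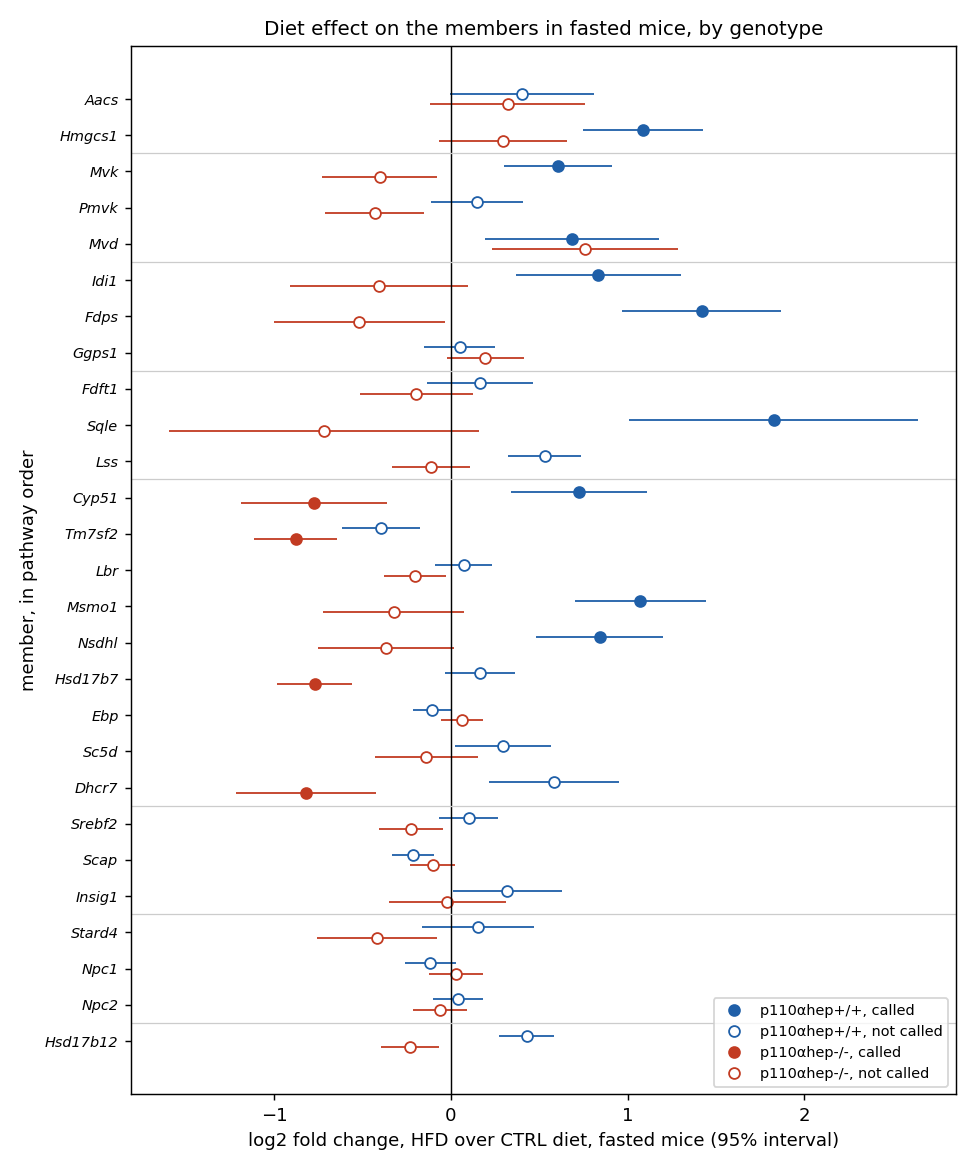
Log2 fold change of HFD over CTRL diet in fasted mice (x axis, points with 95% intervals from limma) for each measured member (y axis) in p110αhep+/+ (blue) and p110αhep-/- mice (red), filled where called. The blue and red points of Fdps stand at 1.42 and -0.52 and those of Msmo1 at 1.07 and -0.32, the red point of Sqle rests on a group near background (1 of 6 arrays well above it), and both colours lie to the right of zero for Mvd (0.69 and 0.76).

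The fed groups serve as the reference for these levels. p110αhep-/- mice had 8 members lower on CTRL diet, against 2.20% of all genes called lower, and 17 on HFD, against 4.03%, with none higher. The lowest log2 fold changes, -2.81 on CTRL diet and -3.74 on HFD, were those of Sqle. Of the 33 markers 7 were called on each diet, in both directions, against 3.73% of all genes in either direction on CTRL diet and 6.23% on HFD. Hsd17b12 lost its call on both diets with the median of its probes, and Mvk on CTRL diet. Of the pairs of a further probe with a called brightest probe, 0 of 4 were called on both on CTRL diet and 9 of 13 on HFD. On CTRL diet Tat (0.73), Cps1 (0.68) and Cela2a (1.23) were higher and Lrat, Lyve1, Spp1 and Cfd lower, and on HFD Cps1 (1.36) and Cela2a (1.56) were higher and Col1a1, Lyve1, Krt19, Spp1 and Cfd lower. Diet alone changed 2 members in fed p110αhep+/+ mice, Hmgcs1 higher (1.20) and Aacs lower (-0.67), against 3.74% of all genes called in either direction. The further probe of Hmgcs1 had 0.56 there and stayed under the fold threshold. In that comparison 5 of the 33 markers were called, Col1a1 (1.28), Spp1 (0.66) and Cfd (1.77) higher and Cps1 (-0.82) and Cela2a (-0.70) lower. In fed p110αhep-/- mice 9 members were called, Hmgcs1 higher (0.66) and 8 lower, against 2.33%, and 1 marker, Cfd (3.23). The call of Hmgcs1 was lost with median scaling and with the median of its probes, and its further probe had 0.15 (adjusted p = 0.50). Pmvk, Sqle and Stard4 lost theirs under at least 1 alternative as well. The genotype by diet interaction in fed mice was called lower for 3 members, Cyp51 (-1.52), Aacs (-1.15) and Pmvk (-0.76), against 1.07% of all genes, and Aacs and Pmvk lost the call under at least 1 alternative. This count lay between 1 and 6 when each array was left out. The markers Cps1 (0.68) and Sox9 (0.63) were called higher in it, 2 of 33 against 1.38% in either direction. Pairs of comparisons that share a fed group, such as both genotype effects and both fasting effects, are not independent.

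The 7 members that were called in none of the 18 comparisons were Srebf2, Scap, Ggps1, Ebp, Lbr, Npc1 and Npc2. Over all 48 arrays Srebf2 kept between 9.55 and 10.40. Fdft1 was called once, in fed mice on HFD, where p110αhep-/- mice had 11.05 to 11.43 (median 11.39) and p110αhep+/+ mice 11.88 to 12.32 (median 12.21), a log2 fold change of -0.82 (SE 0.15, adjusted p = 5.6e-05) with no overlap. Insig1 and Stard4 fell with fasting in all 4 combinations of genotype and diet, as did Fdps, Nsdhl, Sc5d and Dhcr7 among the enzymes. Ggps1 kept between 9.52 and 10.37, Npc2 between 11.14 and 11.90, and Ebp between 15.37 and 16.05.

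Correlations between members across mice of 1 group were read as well. After subtracting group means, the 190 pairs among the 20 enzymes had a median correlation of 0.31 (-0.41 to 0.84) over 48 arrays, which share slides and normalization. The 140 pairs of the 7 other members with the enzymes had a median of 0.21. Pairs of genes outside the module were not read as a reference. Fdps followed the other enzymes most closely (median r 0.64), then Dhcr7 (0.58) and Msmo1 (0.55), and Ebp least (-0.22). Fasted p110αhep+/+ mice on HFD spread the most. Replicate 1 had 19 of 20 enzymes above the group mean, by 0.55 on average, and replicate 4 had 17 (0.31), whereas replicate 3 had 1 (-0.35). Their Fdps signals were 13.79, 13.15 and 12.18, and their Sqle signals 10.27, 9.78 and 7.51.

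**Figure D5:**
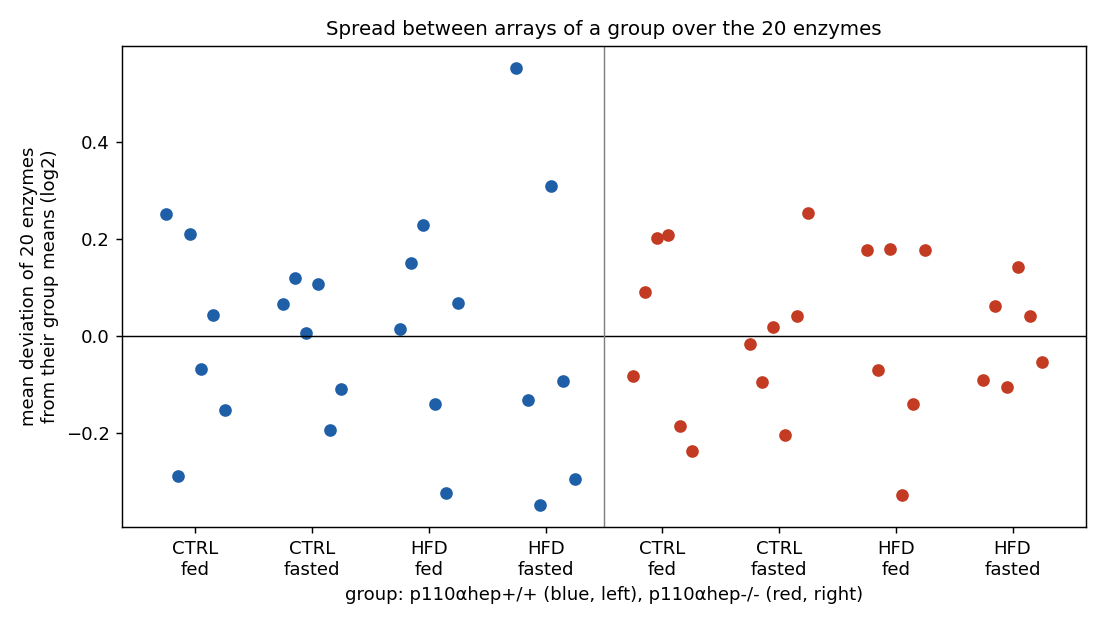
Mean deviation of the 20 enzymes from their group means (y axis, log2) for each array (points) by group (x axis), p110αhep+/+ in blue and p110αhep-/- in red. Fasted p110αhep+/+ mice on HFD hold the highest array (0.55) and the lowest (-0.35) of the 48.

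Related lists were read in the same fits. The 9 fatty acid synthesis genes of the SREBP-1c programme all fell with fasting in p110αhep+/+ mice on CTRL diet (median -2.71), among them the lipase gene Pnpla3 (-4.64), the fatty acid synthase gene Fasn (-4.47) and the elongase gene Elovl6 (-3.46), and 9 fell in p110αhep+/+ mice on HFD, 8 in p110αhep-/- mice on CTRL diet and 6 in p110αhep-/- mice on HFD, where between 2.47% and 3.44% of all genes were called lower. Between genotypes in fasted mice 4 were called on CTRL diet, Elovl6 higher (0.79) and 3 lower, led by Thrsp (-1.68), against 3.23% of all genes, and 5 were lower on HFD, led by the desaturase gene Scd1 (-3.03), against 4.23%. HFD changed 1 of the 9 in fasted p110αhep+/+ mice, Thrsp (1.28), against 2.83% of all genes, and lowered Scd1 (-2.19) and Elovl6 (-1.42) in fasted p110αhep-/- mice, against 0.971% called lower.

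Of 12 genes of SREBP processing and sterol sensing, between 1 and 3 were called in each fasting comparison, where between 4.72% and 7.09% of all genes were called. Srebf1, which encodes SREBP-1, fell with fasting in all 4 settings (-2.83 in p110αhep+/+ and -2.61 in p110αhep-/- mice on CTRL diet, -1.71 and -1.66 on HFD). Insig2, the second anchor, was higher in fasted than in fed p110αhep-/- mice on CTRL diet (0.93). Between genotypes in fasted mice on HFD 1 of the 12 was called, Insig2, lower in p110αhep-/- mice (-0.82). There 6.55% of all genes were called in either direction. This single call is near the background and is not read as a result about the list. Rnf145, a sterol-regulated ubiquitin ligase, fell in 3 of the 4 fasting comparisons (-0.65 to -0.999). In fasted mice the 13 genes of sterol storage and traffic gave 1 call between genotypes, the lysosomal lipase gene Lipa on HFD (-0.66), where 6.55% of all genes were called in either direction, so the single call is near the background and is not read as a result about the list. The 13 genes of the isoprenoid branches gave none. No gene of these 3 lists was called for diet in fasted mice of either genotype. With fasting both lists of 13 gave 0 or 1 call in each comparison, near the background, and no gene of them is singled out.

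With genotype in the fasted HFD groups 7 of the 33 markers were called, against 6.55% of all genes in either direction, and their part in the sterol differences was not tested. By list, Kupffer cells had 0 of 6 called, stellate cells 1 of 6 (Col1a1, -2.32), endothelium 1 of 6 (Clec4g, 0.68), bile duct 2 of 5 (Spp1, -2.63, and Krt19, -0.73), fat 1 of 3 (Cfd, -5.18) and pancreas 1 of 1 (Cela2a, 2.30). The array means of the bile duct list were 7.14 to 7.57 in p110αhep+/+ and 6.36 to 6.67 in p110αhep-/- mice, those of the stellate list 9.84 to 10.67 and 9.79 to 10.16, those of the Kupffer list 10.33 to 12.17 and 10.70 to 11.72, those of the endothelial list 10.05 to 10.51 and 10.43 to 10.62, and those of the fat list 8.37 to 9.30 and 6.49 to 7.96. Pancreas was read from Cela2a alone (6.37 to 6.86 and 8.11 to 9.95), and the remaining 3 pancreas markers and 1 fat marker did not pass the filter. The hepatocyte list lay at 16.22 to 16.56 and 16.45 to 16.82, with Cps1 the 1 gene of it called (1.1).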

How the data were processed

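Liver RNA of 48 mice was labelled with Cy3 and hybridised to one-colour Agilent mouse arrays, and the authors deposited the scanner files (Feature Extraction 10.10.1.1) with spot intensity values, flags and other annotation columns. They also deposited a table of log2 values, normalized per the methods with limma, used here as an alternative (r of at least 0.999997 with the values below across shared probes). The median spot intensity was taken as log2, outlier spots and control spots were left out, and probes well above background on at least 5 of 6 arrays of at least 1 group were kept (30793 probes). The washing batch of the labels was removed with group means protected, followed by quantile normalization. Contrasts were fitted to all 48 arrays with array weights in limma 3.58.1 (R 4.3.3), with Benjamini-Hochberg adjustment over all probes kept. A call needs a fold change over 1.5 beside an adjusted p no higher than 0.05. A gene is its brightest probe on average. Replicates are separate mice. The members, the gene lists and the comparisons were chosen with earlier results of these data known. The scripts were tested on simulated data. All members are named. Full statistics are given for called members with large changes, not for all of them. The fed comparisons of genotype and of diet are mostly given by counts and log2 fold changes. Values of Srebf2, Scap and Insig1 together are given for fasting in p110αhep+/+ mice on CTRL diet and for genotype in fasted mice on HFD. Of the other lists up to 3 called genes are named. Full values of Hsd17b12 and the comparison of single arrays were chosen after the values were seen, as was the contrast of diet by fasting.

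Alternatives were the scanner's processed intensity scaled to the 75th percentile, normexp with offset 50, median scaling, other filters on dim probes, no batch correction, batch, slide or replicate number as a block, single batches, no weights, the deposited log2 values, other thresholds, each gene as the median of its probes, the compared groups alone and each array left out. Lost calls of single members were counted over 13 of these, with both washing batches, unchanged thresholds and no single array left out. The number of arrays limits the precision. Probe positions are on mm9 and promoter windows on GRCm38.p6, and they were not combined.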

Additional observations from a re-analysis of the deposited data

Results flagged for a closer look

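Among 216 sets of 6 arrays, 1 for each member and group, 13 held an array far from the other 5 by Dixon's test, where chance gives about 1 in 20. Fed p110αhep-/- mice on HFD held 6 of the 13. In this group Mvd was high in replicate 6 (9.18 against 7.87 for the nearest array), Fdft1 (11.05), Nsdhl (7.30) and Sc5d (13.44) were low in replicate 4, and in replicate 3 Npc1 was low (12.21) and Npc2 high (11.68). Fed p110αhep+/+ mice on HFD held a low Dhcr7 in replicate 5 (9.34) and a high Scap in replicate 3 (12.91). In fasted p110αhep+/+ mice Lbr was high on HFD in replicate 1 (9.74), and on CTRL diet Hsd17b7 was low in replicate 6 (11.005) and Hsd17b12 in replicate 3 (12.14). In fasted p110αhep-/- mice Sc5d was low on CTRL diet in replicate 4 (12.996) and Srebf2 on HFD in replicate 6 (9.55).

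An effect differed between groups, by the interaction in limma, for 27 pairs of a member and a contrast, given as log2 differences. For genotype by fasting these were Fdps (1.32), Sqle (2.04), Nsdhl (0.93) and Hsd17b7 (0.92) on CTRL diet and Aacs (1.11) and Pmvk (0.71) on HFD. For genotype by diet they were Aacs (-1.15), Pmvk (-0.76) and Cyp51 (-1.52) in fed mice. In fasted mice they were Mvk (-1.01), Idi1 (-1.24), Fdps (-1.94), Sqle (-2.54), Lss (-0.64), Cyp51 (-1.496), Msmo1 (-1.39), Nsdhl (-1.21), Hsd17b7 (-0.94), Dhcr7 (-1.40) and Hsd17b12 (-0.66). For diet by fasting they were Aacs (1.08), Fdps (1.74) and Sqle (2.25) in p110αhep+/+ mice and Aacs (2.15), Mvd (1.25), Hsd17b7 (-0.98) and Insig1 (0.96) in p110αhep-/- mice.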

How the results depend on the processing

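The 15 alternatives counted here leave out other thresholds and the omission of single arrays. Of 7272 log2 fold changes of members under them, no called one reversed, 169 lost a call and 44 gained one. With only probes above background on all arrays, Sqle was left out and gave no value. The number of members called changed as follows, as limma counts of 27. With a fold change over 2 it was 6 for fasting in p110αhep-/- mice on CTRL diet, 9 in p110αhep+/+ and 3 in p110αhep-/- mice on HFD, 0 for genotype in fasted and 4 in fed mice on CTRL diet, 4 and 0 for diet in fasted p110αhep+/+ and p110αhep-/- mice, 1 and 4 in fed ones, 2 and 1 for genotype by fasting on CTRL diet and HFD, and 2 for diet by fasting in p110αhep-/- mice. Where it was 0, 7 members (genotype) and 5 (diet) passed the adjusted p. With the adjusted p alone it was 15 for fasting in p110αhep-/- mice on HFD, 7 and 15 for genotype on CTRL diet in fasted and fed mice, 14 and 7 for diet in fasted and fed p110αhep+/+ mice, and 5 for genotype by diet in fed mice. In washing batch 1 it was 4 for fasting in p110αhep-/- mice on HFD, 0 and 5 for genotype on CTRL diet in fasted and fed mice, 3 and 1 for diet in fasted p110αhep+/+ and p110αhep-/- mice, 1 and 0 for genotype by fasting on CTRL diet and HFD, 6 and 0 for genotype by diet in fed and fasted mice, and 0 for diet by fasting in p110αhep+/+ mice. In batch 2 it was 2 for diet in fed p110αhep-/- mice, 1 and 0 for genotype by fasting on CTRL diet and HFD, 0 and 7 for genotype by diet in fed and fasted mice, and 0 and 2 for diet by fasting in p110αhep+/+ and p110αhep-/- mice. Where a batch gave 0, between 3 and 14 members had an unadjusted p under 0.05. A batch holds fewer arrays, 3 per group.

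Genotype by fasting on CTRL diet had 2 without the filter on dim probes and 2 without weights, and diet by fasting in p110αhep+/+ mice 1 and 1. On HFD genotype by fasting had 1 without the filter, batch correction or weights, with slide as a block, with the replicate block, and with the compared groups alone. Same-numbered replicates did not deviate together (mean r 0.018 over 168 pairs of arrays, 39 of them over 0.1), so numbers were not taken as pairs. With the replicate block no other count moved by over 1.5 times. Genotype by diet in fed mice had 5 with the processed signal, normexp, median scaling or only probes above background on all arrays, and 1 without batch correction or with slide as a block. Genotype in fasted mice on CTRL diet had 4 with the processed signal and 1 with the median over probes. The cause was not tested.

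Leaving out 1 array at a time gave 16 to 16, 13 to 13, 12 to 14 and 7 to 10 for fasting (p110αhep+/+ and p110αhep-/- mice on CTRL diet, then on HFD), 1 to 4 and 12 to 15 for genotype in fasted and 7 to 9 and 17 to 18 in fed mice (CTRL diet, HFD), 6 to 10 and 4 to 5 for diet in fasted and 1 to 2 and 6 to 10 in fed mice (p110αhep+/+, p110αhep-/-), 2 to 5 and 0 to 3 for genotype by fasting (CTRL diet, HFD), 1 to 6 and 9 to 12 for genotype by diet (fed, fasted), and 1 to 3 and 3 to 4 for diet by fasting (p110αhep+/+, p110αhep-/-). The arrays that moved a count by over 1.5 times were these. Genotype in fasted mice on CTRL diet had 4 without fasted p110αhep+/+ CTRL replicate 5, and 1 without fasted p110αhep-/- CTRL replicate 4. Diet in fed p110αhep+/+ mice had 1 without fed p110αhep+/+ CTRL replicate 3. Genotype by fasting on CTRL diet had 2 without fasted p110αhep+/+ CTRL replicates 5 or 6, fed p110αhep+/+ CTRL replicates 1, 3 or 5 or fed p110αhep-/- CTRL replicates 5 or 6. Genotype by fasting on HFD had 0 without fasted p110αhep+/+ HFD replicates 2 or 3, fed p110αhep+/+ HFD replicate 6 or fed p110αhep-/- HFD replicates 4 or 5, and 1 without fasted p110αhep-/- HFD replicates 2, 3, 4, 5 or 6, fed p110αhep+/+ HFD replicate 2 or fed p110αhep-/- HFD replicate 2. Genotype by diet in fed mice had 5 without fasted p110αhep+/+ HFD replicate 1, fed p110αhep+/+ HFD replicate 4, fed p110αhep-/- CTRL replicates 1 or 2 or fed p110αhep-/- HFD replicates 1 or 6, and 1 without fed p110αhep+/+ HFD replicate 6 or fed p110αhep-/- CTRL replicate 3, and 6 without fed p110αhep+/+ CTRL replicates 1 or 3, fed p110αhep+/+ HFD replicate 5 or fed p110αhep-/- HFD replicate 3. Diet by fasting in p110αhep+/+ mice had 1 without fasted p110αhep+/+ HFD replicate 4. In the 5 omissions with a count of 0, between 5 and 9 members had an unadjusted p under 0.05.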
